A study of Mus musculus with 4 samples.

Results

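Histone deacetylase genes and Sirt1 were examined in peak lists from RNA immunoprecipitation sequencing (RIP-seq) of mouse liver. The genes were chosen by name: Hdac1, Hdac2, Hdac3, Hdac4, Hdac5, Hdac6, Hdac7, Hdac9, Hdac11 and Sirt1. Of these 10 genes, 9 held a peak in at least 1 list, out of 8889 genes with a peak in all. They accounted for 38 of 41511 peaks in the AAV-NAT10 list and 28 of 33968 in the AAV-GFP list.

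The libraries were made from livers of male C57BL/6 mice that had received NAT10, or GFP as the control, through adeno-associated virus (AAV), which carries genes into cells. NAT10 acetylates cytidine in RNA to N4-acetylcytidine (ac4C). For each virus there was 1 immunoprecipitated (IP) and 1 input library, with no replicates among the 4, so no test between the viruses was possible. The sources used here give neither the promoter and dose of the virus nor the age and number of the mice. The extraction protocol also names db/db and lean mice, which the titles do not, and the labels do not settle whether NAT10 protein or ac4C was precipitated. Nat10 itself held 10 peaks with a median fold of 14.9 in the AAV-NAT10 list, where the median of all peaks was 6.51. In the AAV-GFP list it held 9 peaks with a median fold of 4.88, where the median of all peaks was 6.33. A fold ranks peaks within its own list only. Whether these peaks came from delivered or from the animals' own Nat10 RNA was not tested. Of 10 hepatocyte markers, only Apob and Cps1 held a peak, both in AAV-NAT10 alone, and albumin (Alb) and Hnf4a had none. Of 8 markers of other liver cells, 7 held a peak in both lists. A peak list is not a measure of expression, so these markers check the tissue label only weakly.

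Lysine deacetylases remove acetyl groups from histones and from many other proteins. Class I enzymes work in nuclear corepressor complexes. Class IIa enzymes shuttle between nucleus and cytoplasm under the control of phosphorylation, class IIb enzymes act largely in the cytoplasm, and class IV holds Hdac11 alone. These classes need zinc, whereas the sirtuins, called class III, use NAD as a cosubstrate. In mouse liver, Hdac3 restrains lipid synthesis genes, class IIa enzymes take part in the fasting response through FoxO factors, and Sirt1 deacetylates the coactivator PGC-1alpha. In human cells, SIRT1 has been described as a deacetylase of NAT10 protein.

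Among the 10 genes, 6 held a peak in both lists (Hdac1, Hdac3, Hdac4, Hdac5, Hdac6 and Sirt1). A further 3 genes (Hdac2, Hdac7 and Hdac11) held a peak in AAV-NAT10 alone. No gene held a peak in AAV-GFP alone, and Hdac9 held none in either list. The 3 genes are 33.3% of the 9 with a peak (exact 95% interval 7.49 to 70.1). Over all genes with a peak in either list, 16.1% had one in AAV-NAT10 only, 79.7% in both and 4.29% in AAV-GFP only. The interval contains 16.1%, so the share among the deacetylases could not be told apart from that of all genes. Because the genes were chosen with these lists known, the interval is no test of a difference. It covers counting error only. Depth and IP yield of the libraries are unknown, and unequal depth or yield would change any of these counts. An unlisted gene is not thereby unbound, and how much of its RNA the liver held is unknown. Over all RefSeq protein-coding genes, 36.1% had a peak in AAV-NAT10 and 31.8% in AAV-GFP, against 9 of the 10 deacetylase genes in AAV-NAT10 and 6 in AAV-GFP, which were chosen with these lists known.

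**Figure D1:**
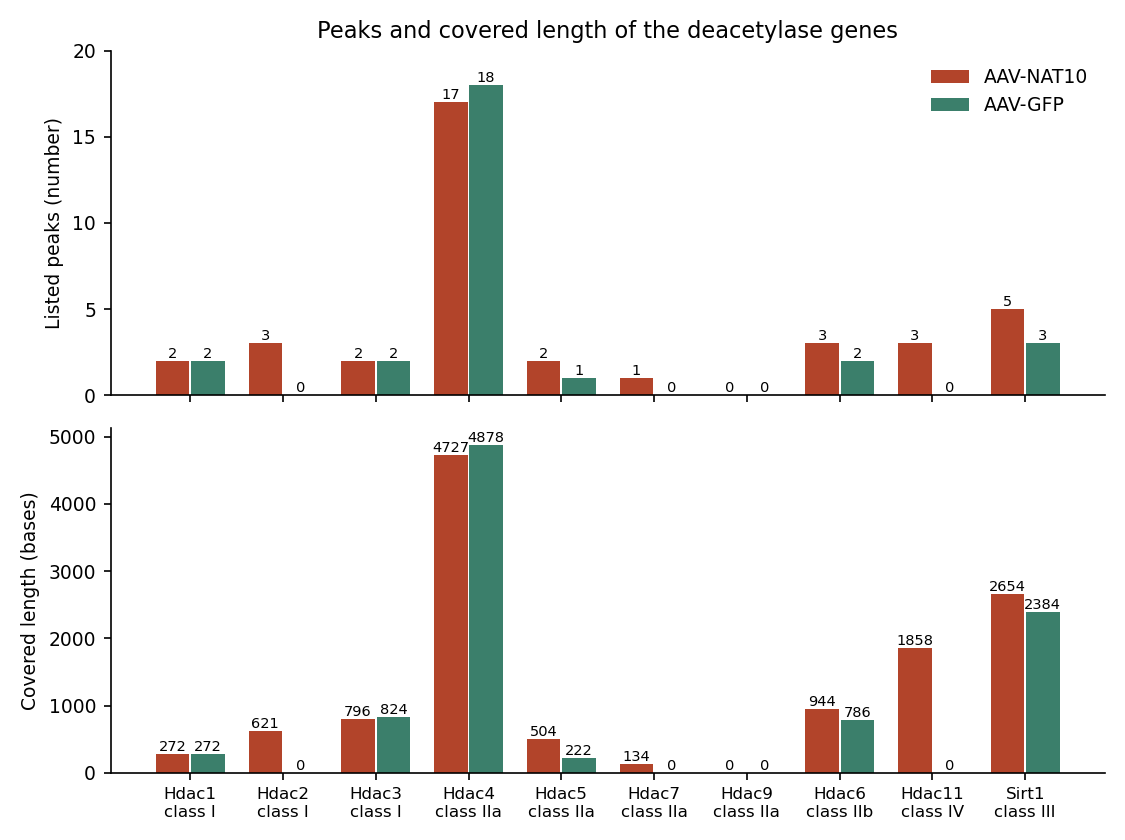
Number of listed peaks (upper panel) and summed peak length in bases (lower panel) for each of the 10 genes, with AAV-NAT10 left of AAV-GFP and the value above each bar. Each bar is 1 peak list without replicates. Hdac4 has the tallest bars in both lists, and Hdac2, Hdac7 and Hdac11 have a bar in AAV-NAT10 alone.

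Covered length, the sum of a gene's peak lengths, was read next. Among the 6 genes with peaks in both lists, it was greater in AAV-NAT10 for 3 (Sirt1, Hdac5 and Hdac6), greater in AAV-GFP for 2 (Hdac3 and Hdac4) and equal for Hdac1. Their median difference, AAV-NAT10 minus AAV-GFP, was 79 bases. Over the 7081 genes with peaks in both lists it was 93 bases, with 58.8% covered over more bases in AAV-NAT10 and 27% over more in AAV-GFP. The 2 medians were close, but that of the deacetylases rests on 6 genes, whose differences ran from -151 bases (Hdac4) to 282 (Hdac5). With other choices of peaks, and fewer deacetylase genes, it was 437, 5 or 281 bases. By number of peaks, 3 of the 6 genes had more in AAV-NAT10 and 1, Hdac4, had more in AAV-GFP, against 46.4% of all shared genes with more in AAV-NAT10 and 14.4% with more in AAV-GFP.

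Most peaks that overlapped had the same start and end in both lists. This held for 23 deacetylase peaks, which were 60.5% of those in AAV-NAT10 and 82.1% of those in AAV-GFP. Over all peaks it held for 60.2% in AAV-NAT10 and 73.6% in AAV-GFP. Hdac4 held 16 of the 23, and without Hdac4 the deacetylase shares were 33.3% in AAV-NAT10 and 70% in AAV-GFP. A further 2 deacetylase peaks overlapped with slightly different borders. Of the 38 AAV-NAT10 peaks, 25 overlapped an AAV-GFP peak (65.8%, 48.6 to 80.4), against 71.5% of all AAV-NAT10 peaks. Of the 28 AAV-GFP peaks, 25 overlapped an AAV-NAT10 peak (89.3%, 71.8 to 97.7), against 87.4% of all AAV-GFP peaks. With all 10 genes, both intervals contained the value of the whole list. Hdac4 held 16 of the 25 overlapping pairs. Without Hdac4, a choice made after the data were seen, 9 of 21 AAV-NAT10 peaks (42.9%, 21.8 to 66.0) and 9 of 10 AAV-GFP peaks (90%, 55.5 to 99.7) overlapped. The AAV-NAT10 share thus depended on 1 gene, and that gene was dropped after the data were seen. The interval without Hdac4 therefore decides nothing about a difference from the 71.5% of the whole list. Of these 21 peaks, 7 lie in the 3 genes that have no AAV-GFP peak at all. Peaks of 1 gene share their transcript and are not independent, so the intervals are too narrow and test no difference.

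Peaks found in 1 list alone were mostly weak within that list. Each peak carries a fold enrichment over background and a score, which is -10 times log10 of its p-value. Both are values of the authors' peak caller for single peaks, and they rank peaks within 1 list only. The 13 AAV-NAT10 deacetylase peaks without a counterpart had a median fold of 5.0 and a median score of 124, and the 25 with one had 7.47 and 340. The 3 AAV-GFP peaks without a counterpart, in Hdac4 and Hdac6, had folds of 3.71 to 4.39 and scores of 62.8 to 82.4. All peaks showed the same order: without a counterpart, the median fold was 4.92 in AAV-NAT10 and 4.88 in AAV-GFP, and with one it was 7.35 in AAV-NAT10 and 6.56 in AAV-GFP. By score, 1 peak each of Hdac5 and Hdac11 was an exception, since both exceeded the median score of all AAV-NAT10 peaks, 310.1. By fold, 1 peak each of Hdac2, Hdac5, Hdac11 and Sirt1 exceeded the list median.

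**Figure D2:**
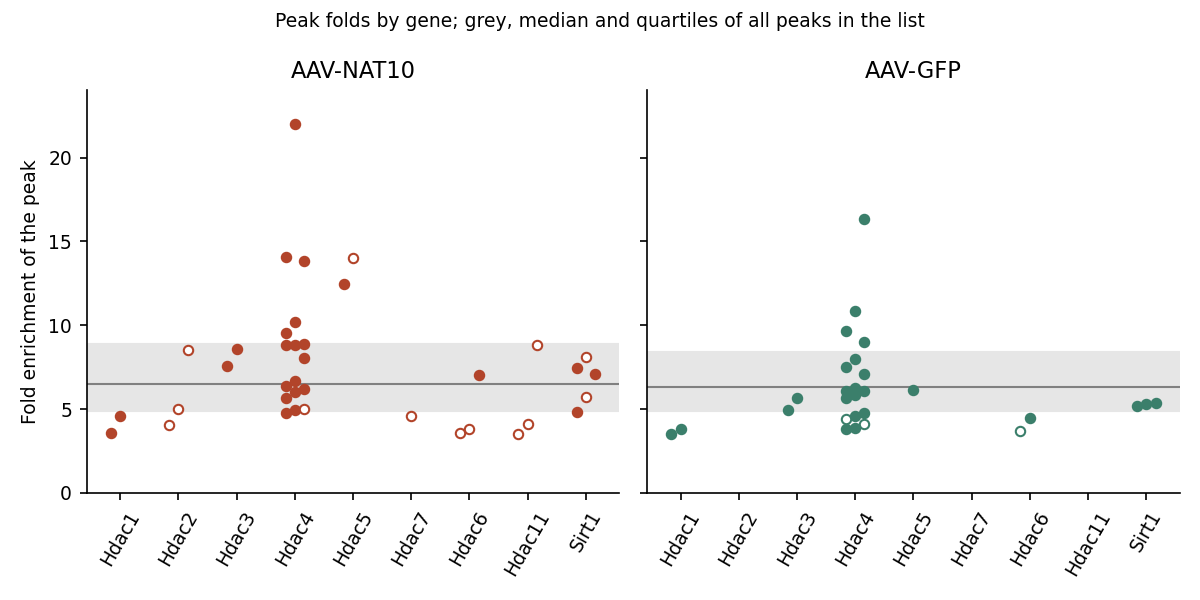
Fold enrichment of every peak of the 9 genes with peaks, AAV-NAT10 in the left panel and AAV-GFP in the right. Filled points have a counterpart in the other list and open points have none. The grey line and band are the median and quartiles of all peaks in that list. The Hdac4 peak of highest fold reaches 22 in AAV-NAT10 and 16.4 in AAV-GFP, and the open Hdac5 point stands at 14.0.

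The class I genes Hdac1, Hdac2 and Hdac3 encode the catalytic subunits of the main nuclear corepressor complexes. Hdac1 (gene span 129516104 to 129542646 of chromosome 4, mm10) held the same 2 peaks in both lists. The peak at 129517793 to 129517923 had a fold of 3.57 in AAV-NAT10 and 3.51 in AAV-GFP. The peak at 129518831 to 129518971 had a fold of 4.57 in AAV-NAT10 and 3.81 in AAV-GFP. The highest score of Hdac1 was 145 in AAV-NAT10 and 87.2 in AAV-GFP. All 4 folds lay in the lowest 20% of their list, at percentiles 5.27 and 19.9 in AAV-NAT10 and 3.93 and 7.37 in AAV-GFP, so Hdac1 was found in both lists at low folds.

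Hdac2, the close relative and complex partner of Hdac1, held 3 peaks covering 621 bases in AAV-NAT10 and none in AAV-GFP. They lay on chromosome 10 at 36986307 to 36986424 (fold 4.05, score 86.3), 36991757 to 36991898 (5.0 and 98.7) and 37001529 to 37001889 (8.50 and 142). The last ended exactly at the 3′ end of the RefSeq gene. Of the 1427 genes with a peak in AAV-NAT10 alone, 67.8% had a single peak and 10.3% had at least 3, as Hdac2 did. Its highest score was close to the median of these genes, which was 146.

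Hdac3, the catalytic subunit of the NCoR complex, held 2 peaks in each list on chromosome 18. The longer ran from 37937031 to 37937683 in AAV-NAT10, at fold 7.54 and score 923. In AAV-GFP it began 28 bases lower, at 37937003, and stood at fold 4.94 and score 101. The shorter, at 37952471 to 37952613, had a fold of 8.58 in AAV-NAT10 and 5.66 in AAV-GFP. The 28 bases are the whole difference in covered length, 796 bases in AAV-NAT10 and 824 in AAV-GFP.

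The class IIa genes encode enzymes that bind MEF2 transcription factors and have weak deacetylase activity of their own. Hdac4 held the most peaks of the 10 genes. It had 17 peaks covering 4727 bases in AAV-NAT10 and 18 covering 4878 bases in AAV-GFP, which is 44.7% of the deacetylase peaks in AAV-NAT10 and 64.3% of those in AAV-GFP. Of all genes, 406 in AAV-NAT10 and 273 in AAV-GFP had at least as many peaks. The gene spans 266924 bases of chromosome 1 (91928779 to 92195702).

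The 2392-base piece at 91928785 to 91931176 had the highest fold and score of Hdac4 in both lists. It lay 6 bases from the 3′ end of the RefSeq gene. Its fold was 22 in AAV-NAT10 and 16.4 in AAV-GFP, at percentile 99.6 of the AAV-NAT10 list and 98.9 of the AAV-GFP list. Its score was 3100 in both lists, a value that many peaks share, and no other deacetylase peak scored as high. This value was treated as the ceiling of the score, so the equal scores do not show equal strength. Scores of 3100 or more made up 6.96% of AAV-NAT10 peaks and 4.56% of AAV-GFP peaks. The false discovery rate (FDR) of this Hdac4 piece was 4.58% in AAV-NAT10 and 11.07% in AAV-GFP. The AAV-GFP value was the highest of any deacetylase peak, against an upper quartile of 5.01% over all AAV-GFP peaks.

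The other Hdac4 pieces had lower folds than this one in both lists. The piece nearest the 5′ end, at 92148256 to 92148494, had a fold of 14.1 in AAV-NAT10 and 8.98 in AAV-GFP. The piece at 92029955 to 92030196 had a fold of 13.8 in AAV-NAT10 and 9.66 in AAV-GFP. The piece at 91975439 to 91975693 had a fold of 8.89 in AAV-NAT10 and 10.8 in AAV-GFP. At the low end, the 88-base piece at 91958355 to 91958442 had a fold of 4.76 in AAV-NAT10 and 3.81 in AAV-GFP, the lowest of the gene in each list. The median fold of the gene was 8.02 in AAV-NAT10 and 6.05 in AAV-GFP.

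Only 3 Hdac4 pieces lacked a counterpart. In AAV-NAT10 this was the piece at 91945900 to 91946033 (fold 5.0, score 112). In AAV-GFP these were the pieces at 91970943 to 91971076 (4.10 and 71.8) and 92012669 to 92012819 (4.39 and 62.8). All of them lay below the median fold of their list, which was 6.51 in AAV-NAT10 and 6.33 in AAV-GFP.

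**Figure D3:**
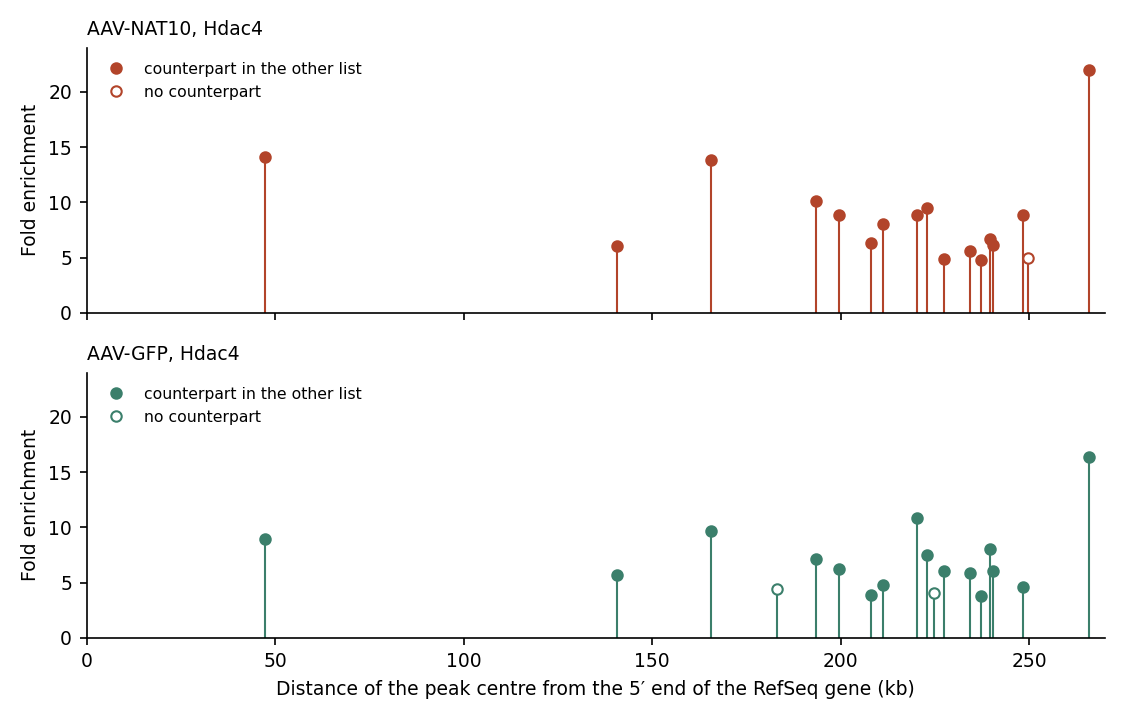
Fold enrichment of each Hdac4 piece against the distance of its centre from the 5′ end of the RefSeq gene, in kb, with AAV-NAT10 above and AAV-GFP below. Filled points have a counterpart in the other list, and open points (1 in AAV-NAT10, 2 in AAV-GFP) have none. The tallest stem in both panels is the piece at the 3′ end, with a fold of 22 in AAV-NAT10 and 16.4 in AAV-GFP.

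Hdac5 held 2 peaks covering 504 bases of chromosome 11 in AAV-NAT10 and 1 covering 222 bases in AAV-GFP. The shared piece at 102224734 to 102224955 stood at fold 12.5 and score 1087 in AAV-NAT10, and at fold 6.15 and score 265 in AAV-GFP. The second piece, at 102202053 to 102202334, was listed in AAV-NAT10 alone at fold 14.0 and score 1464. It was the strongest deacetylase peak without a counterpart. Of the 5859 AAV-NAT10 peaks with at least this score, 424 (7.24%) had no AAV-GFP counterpart.

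Hdac7, which is known from blood vessel and lymphocyte development, held a single 134-base peak, in AAV-NAT10 alone. It lay at 97802683 to 97802816 of chromosome 15, at fold 4.61 and score 98.8. Of the 1427 genes with a peak in AAV-NAT10 alone, 966 reached at least this score and 1356 at least this covered length, so the Hdac7 peak was among the smaller of them. Hdac9, whose gene spans 869516 bases of chromosome 12, had no peak in either list. Of the 85 protein-coding RefSeq genes at least as long, itself included, 16 held a peak in either list. Over all RefSeq protein-coding genes, 37.6% did.

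Hdac6, the class IIb enzyme that deacetylates tubulin in the cytoplasm, held 3 peaks covering 944 bases of chromosome X in AAV-NAT10 and 2 covering 786 bases in AAV-GFP. They shared 1 piece, at 7931466 to 7931959, with a fold of 7.04 in AAV-NAT10 and 4.46 in AAV-GFP. The other pieces did not overlap. In AAV-NAT10 they lay at 7937843 to 7938011 (fold 3.81, score 52.3) and 7947125 to 7947405 (3.57 and 124). In AAV-GFP the other piece lay at 7938386 to 7938677 (3.71 and 82.4). The lowest score in either list was 50, so the Hdac6 piece at 52.3 was among the weakest listed.

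Hdac11, the only class IV enzyme, which also removes long fatty acyl groups from lysine, held 3 peaks covering 1858 bases of chromosome 6 in AAV-NAT10 and none in AAV-GFP. The 117-base piece at 91165561 to 91165677 stood at fold 8.80 and score 840.0. The piece at 91169395 to 91169491 stood at fold 4.08 and score 153. The 1644-base piece at 91173049 to 91174692 reached the 3′ end of the gene at fold 3.52 and score 240.1. Of the 1427 genes with a peak in AAV-NAT10 alone, 113 reached a score as high as that of Hdac11 and 168 a covered length as great. Most of that length was the 1644-base piece, whose fold stood at percentile 4.79 of the AAV-NAT10 list. The 117-base piece stood at percentile 74.0 and the remaining piece at 12.2. Of the 10051 AAV-NAT10 peaks scoring at least as high as the best Hdac11 piece, 8.01% had no AAV-GFP counterpart. By score, Hdac11 ranked above Hdac2 and Hdac7, whose highest scores were reached by 734 and 966 of these genes.

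Sirt1 held 5 peaks covering 2654 bases of chromosome 10 in AAV-NAT10 and 3 covering 2384 bases in AAV-GFP. The difference of 270 bases was 5 bases when equal numbers of top peaks by score were taken from both lists. It was 577 bases with the peaks of highest fold and 457 with a score of at least 100. All 3 AAV-GFP pieces had a counterpart. The longest reached the 3′ end of the gene in AAV-NAT10 (63319005 to 63320964, fold 4.84, score 915) and stopped 5 bases short of it in AAV-GFP (63319010 to 63320964, fold 5.21, score 594). The piece at 63323967 to 63324153 had a fold of 7.47 in AAV-NAT10 and 5.37 in AAV-GFP. The piece at 63335636 to 63335877 had a fold of 7.11 in AAV-NAT10 and 5.32 in AAV-GFP. Found in AAV-NAT10 alone were the pieces at 63326039 to 63326186 (fold 8.10, score 281) and 63336980 to 63337096 (5.72 and 123). The first of these had the highest fold of any Sirt1 piece in that list. Per base of gene span, Sirt1 was the most covered of the 10 genes, with 13.2% in AAV-NAT10 and 11.9% in AAV-GFP. Covered length was not scaled to exon length in any of these comparisons between genes.

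**Figure D4:**
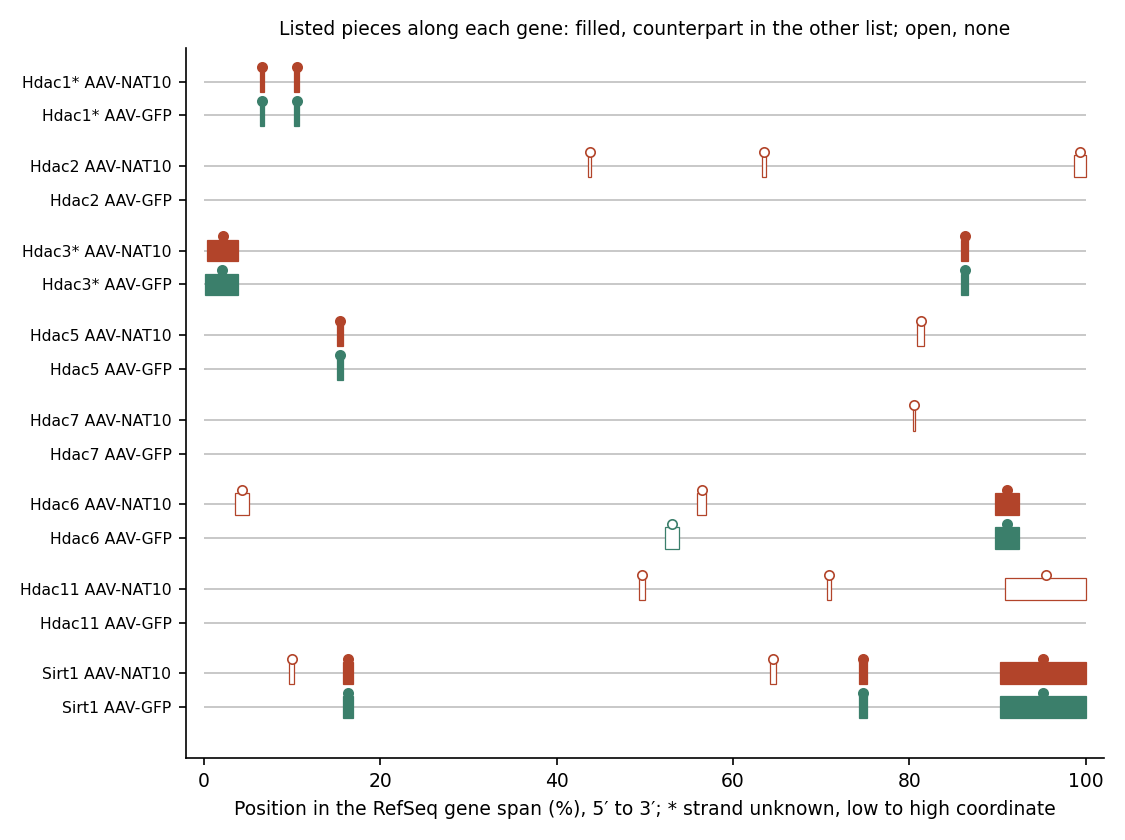
Position of every listed piece of 8 genes, drawn to scale along the RefSeq gene span in percent, with AAV-NAT10 above AAV-GFP for each gene. Filled boxes have a counterpart in the other list and open boxes have none, and the point on each box is filled or open likewise, for boxes too narrow to see. Hdac2, Hdac7 and Hdac11 have open boxes in AAV-NAT10 and an empty AAV-GFP line, and the Sirt1 line of AAV-NAT10 has 2 open boxes.

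Position along the gene could be read where the strand was known, for 7 genes in AAV-NAT10 and 4 in AAV-GFP. A piece ended within 100 bases of the 3′ end in 4 of the 7 AAV-NAT10 genes (Hdac2, Hdac4, Hdac11 and Sirt1) and in 2 of the 4 AAV-GFP genes (Hdac4 and Sirt1). Over all such genes the share was 55.9% in AAV-NAT10 and 54.8% in AAV-GFP. None of these deacetylase genes had a piece within 100 bases of its 5′ end, against 15.6% of genes in AAV-NAT10 and 11.1% in AAV-GFP. These counts rest on 7 and 4 genes and were not tested. Hdac1 and Hdac3, whose strand was not given, enter none of them. The longer Hdac3 piece began at 37937031 in AAV-NAT10 and 37937003 in AAV-GFP, near the lower end of its gene span, 37936971. No other gene of the RefSeq table overlapped any deacetylase piece, although the lists give no strand.

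The other deacetylases and sirtuins were read for comparison. Of 8 genes, 4 (Hdac8, Hdac10, Sirt2 and Sirt5) held a peak in both lists and Sirt4 held 1 in AAV-NAT10 alone. Sirt3, Sirt6 and Sirt7 held none. Hdac8 was covered over 1074 bases in AAV-NAT10 and 1169 in AAV-GFP, Hdac10 over 984 bases in both, and Sirt5, a mitochondrial enzyme that removes succinyl groups, over 600 in AAV-NAT10 and 159 in AAV-GFP. Sirt3, the main mitochondrial deacetylase, and the nuclear Sirt6 and Sirt7 were thus unlisted. To be unlisted was common, since only 37.6% of RefSeq protein-coding genes had a peak in either list. Among all genes with a peak, 79.7% were in both lists and 16.1% in AAV-NAT10 alone.

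Most partners of the deacetylases held peaks in both lists, as did most genes with a peak. Over the other deacetylases and 7 lists of partners and opposing enzymes, 66 genes in all, 48 held a peak in both lists, 5 in AAV-NAT10 alone (9.43% of the 53 with a peak) and none in AAV-GFP alone. Over all genes with a peak, 79.7% had one in both lists, 16.1% in AAV-NAT10 alone and only 4.29% in AAV-GFP alone. Over all RefSeq protein-coding genes, 37.6% had a peak in either list, against 53 of these 66. The partner genes were chosen with earlier results of these data known and were not tested against these shares. In the NCoR complex 3 of 4 genes held a peak, all in both lists. The scaffold Ncor1 was covered over 6346 bases in AAV-NAT10 and 6017 in AAV-GFP, Tbl1xr1 over 7035 in AAV-NAT10 and 7218 in AAV-GFP, and Tbl1x over 3709 in AAV-NAT10 and 3961 in AAV-GFP. Hdac3, the enzyme of this complex, was listed in both lists as well.

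In the Sin3 complex 8 of 11 genes held a peak, all in both lists. Arid4b was covered over 8286 bases in AAV-NAT10 and 9028 in AAV-GFP, Arid4a over 4300 in AAV-NAT10 and 4109 in AAV-GFP, and the scaffold Sin3a over 3820 in AAV-NAT10 and 3845 in AAV-GFP. In the NuRD complex 10 of 11 did, 8 of them in both lists and Mbd3 and Rbbp7 in AAV-NAT10 alone. Gatad2a was covered over 4016 bases in AAV-NAT10 and 3656 in AAV-GFP, Gatad2b over 1915 in AAV-NAT10 and 1667 in AAV-GFP, and the remodeller Chd4 over 1416 in AAV-NAT10 and 1699 in AAV-GFP. In the CoREST complex 5 of 6 did, all in both lists. Phf21a was covered over 6354 bases in AAV-NAT10 and 5587 in AAV-GFP, Rcor1 over 4734 in AAV-NAT10 and 4693 in AAV-GFP, and Rcor3 over 3110 in AAV-NAT10 and 1882 in AAV-GFP. Hdac2, which belongs with Hdac1 to the Sin3, NuRD and CoREST complexes, was listed in AAV-NAT10 alone while their scaffolds Sin3a and Rcor1 were listed in both.

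Among partners and kinases of the class IIa enzymes, 7 of 9 held a peak, all in both lists. The salt-inducible kinases, which phosphorylate class IIa enzymes, were all listed: Sik3 was covered over 5119 bases in AAV-NAT10 and 5951 in AAV-GFP, and Sik2 over 5164 in AAV-NAT10 and 4534 in AAV-GFP. Mef2a, a transcription factor that these enzymes repress, was covered over 5585 bases in AAV-NAT10 and 5704 in AAV-GFP. Of 10 histone acetyltransferases, the opposing enzymes, 8 held a peak in both lists and Kat5 in AAV-NAT10 alone. Ep300 was covered over 9188 bases in AAV-NAT10 and 8468 in AAV-GFP, Kat6a over 8962 in AAV-NAT10 and 8654 in AAV-GFP, and Crebbp over 6367 in AAV-NAT10 and 5901 in AAV-GFP. Of 7 genes of Sirt1 regulation and NAD supply, 5 held a peak in both lists and Parp1, which consumes NAD, in AAV-NAT10 alone. Nampt, the rate-limiting enzyme of NAD salvage, was covered over 3961 bases in AAV-NAT10 and 3826 in AAV-GFP, Cd38 over 2077 in AAV-NAT10 and 1863 in AAV-GFP, and Nmnat1 over 2563 in AAV-NAT10 and 352 in AAV-GFP.

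**Figure D5:**
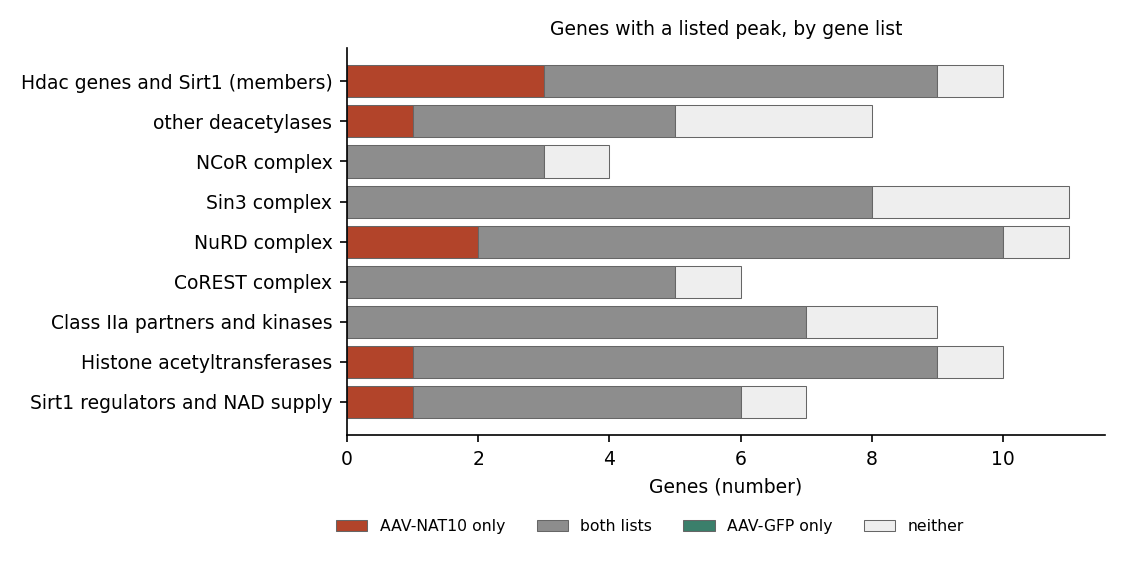
Number of genes with a listed peak in AAV-NAT10 only, in both lists, in AAV-GFP only or in neither, for the 10 deacetylase genes (top bar) and 8 further lists. No list has a gene in AAV-GFP only, a class that held 4.29% of all genes with a peak. The top bar has 3 genes in AAV-NAT10 only, 6 in both and 1 in neither.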

How the data were processed

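RIP-seq peaks were analysed from 1 IP and 1 input library for each virus. The deposited data were 2 peak lists with MACS names and the build mm10, per the submitters' processing notes and the file headers. No aligner, caller version or read filter is named in the sources used here. The fold enrichment, a linear ratio, and the score, -10 times log10 of the p-value, were deposited by the authors, as was the FDR in percent. Among deacetylase peaks the FDR was between 2.57 and 4.98 in AAV-NAT10 and between 4.44 and 11.07 in AAV-GFP. Positions and lengths (other deposited columns) were used as given by the authors, with starts counted from 1. Library depths are unknown.

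Genes were matched by name, and all 10 were found in RefSeq on GRCm38.p6, which mm10 corresponds to, and which gave gene spans. The strand came from its promoter table, which held 8 of them, without Hdac1 and Hdac3. Peaks overlapped where they shared at least 1 base, as checked on simulated lists. Intervals are exact (Clopper-Pearson, 95%) and cover counting error only. From each of 8 gene lists, the 3 genes at most with the greatest covered length are named; other names were chosen after their values were seen. The other genes of these lists enter counts only, and 1 gene was left out of the lists and is not reported here. The genes and lists were chosen with earlier results of these data known. Alternatives took the peaks of highest fold, equal numbers of top peaks, a score of at least 100, at least 2 peaks per gene, a shared 0.5 of the peak or of both, and peaks within 1000 bases merged. Python 3.11.15, pandas 2.3.3 and scipy 1.17.1 were used.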

Additional observations from a re-analysis of the deposited data

How the results depend on the processing

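Which genes were listed in AAV-NAT10 alone depended on the peaks taken. With the 20755 AAV-NAT10 and 16984 AAV-GFP peaks of highest fold, 7 deacetylase genes had a peak in AAV-NAT10 and 1, Hdac4, in AAV-GFP, so that 6 were in AAV-NAT10 alone (23.7% of all genes with a peak were). The overlapped share was then 35% of AAV-NAT10 and 100% of AAV-GFP deacetylase peaks, and the median covered length difference 437 bases, over Hdac4 alone. With 16984 top peaks by score from each list, 5 genes had a peak in AAV-NAT10 and 3 in AAV-GFP, Hdac11 and Hdac3 were in AAV-NAT10 alone (13.3% of all), and the median difference was 5 bases. With a score of at least 100 the genes in AAV-NAT10 alone were Hdac1, Hdac2 and Hdac11 (18.2% of all), and the median difference was 281 bases; with at least 2 peaks per gene they were Hdac2, Hdac5 and Hdac11 (21.9% of all). Hdac11 was in AAV-NAT10 alone under all of these settings, Hdac7 under none. The difference for Hdac3 (-28 bases) reversed to 796 bases by fold, 653 by equal numbers and 115 by score, and that for Hdac4 (-151) to 437 by fold and 245 by score; it was -1 by equal numbers. The difference for Sirt1 (270) was 577 by fold, 5 by equal numbers and 457 by score, and that for Hdac11 (1858) was 117 by fold and by equal numbers. Without Hdac4, 42.9% of AAV-NAT10 peaks overlapped. A stricter overlap changed none of the overlap shares. Merging near peaks changed no difference in peak number, although Hdac1 then had 1 peak in each list, and Hdac4 had 16 in AAV-NAT10 and 17 in AAV-GFP. The cause was not tested; these settings take fewer peaks by construction. No paired analysis was possible because each group is 1 library. No library could be left out for the same reason.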
